A study of Mus musculus with 4 samples.

Results

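The nuclear genes for respiratory complexes II to V were compared between immunopurified polysomal RNA (IP) and total RNA of homogenate (input) from mouse cerebral cortex. Members were the gene symbols Sdha, Sdhb, Sdhc, Sdhd, Cyc1, Cycs and Ndufa4 and those that start with Uqcr, Cox4 to Cox8 or Atp5, where they held 10 or more counts in at least 2 libraries. Of 49 such symbols 46 passed, out of 32531 gene symbols in all, and 1 further isoform gene of complex IV was not analysed here. The 46 comprised 4 genes of complex II, 9 of complex III, cytochrome c (Cycs), 16 of complex IV and 16 with an Atp5 symbol. Of the last, 14 encode subunits of complex V, while Atp5s and Atp5sl were not counted as subunits of the synthase and were kept out of its summaries. The 3 symbols below the limit were Atp5l, with 3 and 3 counts in IP against 12 and 2 in input, Cox8b, with 0 and 2 counts in IP against 1 and 1 in input, and Cox8c, with 0 counts in all 4 libraries. Cox7b2 passed through its input counts alone, so that its direction was fixed by the limit and its values are given as a description with no test. Cox6b2 and Atp5g2 reached 10 counts in IP 4 but not in IP 2, so they passed only with their input counts. Genes encoded in mitochondrial DNA were not analysed here (0 symbols starting with mt- were in the files).

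All 4 libraries came from cerebral cortex of adult mice of the line Cbln1-TRAP NIDA030, in which the ribosomal protein Rpl10a fused to EGFP is expressed under control of Cbln1. The groups were 2 IP libraries, from ribosomes captured with antibodies to EGFP, and 2 input libraries of total RNA, numbered 2 and 4 in each group. Input mice carried the same transgene, and no library from mice without it was analysed here. IP RNA thus represents cells in which the Cbln1 transgene is active, plus any RNA that the capture carried along, against all cells of the dissected cortex. The comparison asks which transcripts were over- or under-represented on tagged ribosomes. Whether libraries of a group stem from different mice is not stated in the labels. The p-values therefore reflect library-to-library variation alone, possibly only technical variation. Both IP libraries carry one sequencing lane code and both input libraries another, and their effects cannot be told apart. In such bulk RNA, fewer cells of a type and less RNA per cell cannot be told apart either.

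Complexes II to V sit in the inner mitochondrial membrane. Complex II, succinate dehydrogenase, passes electrons from succinate to ubiquinone. Complex III passes them from ubiquinol to cytochrome c, and complex IV from cytochrome c to oxygen. Complexes III and IV pump protons, and complex V, the ATP synthase, uses the returning protons to make ATP. Neurons rely on this pathway for most of the ATP that ion pumping and synaptic transmission consume. Complex II is encoded wholly in nuclear DNA, whereas the catalytic core of complex IV, cytochrome b of complex III and part of the membrane portion of complex V are encoded in mitochondrial DNA.

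Counts assigned to genes ranged from 39750468 to 47567384 per library, and a floor of 3 counts lay between 0.0660 and 0.0789 CPM (counts scaled to TMM-adjusted library size, the scale of all levels below unless stated). Cbln1 stood at 99.3 and 68.6 CPM in IP and at 11.9 and 8.55 CPM in input. Rpl10a, whose reads could come from the gene or the tagged copy, stood at 3.10 and 2.91 CPM in IP and at 6.82 and 7.14 CPM in input. Of 6 general neuronal markers 5 rose in IP, with a summed level of 31735 and 29698 CPM in IP and 13183 and 13624 CPM in input. Most of that sum was Snap25, at 27036.6 and 25452.5 CPM in IP and 10526.9 and 10907.9 CPM in input. Of 5 oligodendrocyte markers 4 fell and 1 rose, with summed levels of 909 and 930 CPM in IP and 1412 and 1313 CPM in input. Of 5 astrocyte markers 2 rose and 1 fell, with 267 and 291 CPM in IP and 286 and 297 CPM in input. All 3 glutamatergic markers rose and none of 3 GABAergic markers passed, and of 5 microglial markers 1 rose and 2 fell. All 3 erythroid markers found fell, with summed levels of 1.68 and 3.585 CPM in IP and 9.81 and 10.03 CPM in input. No marker of these lists was at 0 in any library, and their part in the results below was not tested.

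As a group, the respiratory genes were higher in IP than in input, most of them by less than 2-fold. Summed over the 46 genes, their level was 9209 and 8940 CPM in IP, against 6781 and 6286 CPM in input, with no overlap between the groups. Of the 46 genes 23 rose (50%) and 2 fell (4.35%), while 21 missed the threshold, a Benjamini-Hochberg adjusted p under 0.05 over all genes in edgeR's two-sided quasi-likelihood test. The 2 that fell were Cox6b2, which met the count limit only with its input counts, and Cox7b2, counted for completeness only. Across all 16600 genes tested, 23.4% rose and 22.4% fell. The median log2 fold change of IP over input was 0.34 for the 46 genes and -0.04 for all genes tested. The contrast was narrower among well-counted genes. Over the 10681 genes at 5 CPM or more, 34.3% rose and 20.5% fell (median 0.12). Over the 40 members at that level, 57.5% rose and 0 fell (median 0.37). Among the 23 that rose the difference ranged from 1.23-fold to 2.31-fold, and 3 genes, Atp5f1, Uqcrfs1 and Sdhb, reached 2-fold. IP stood above input without overlap in 27 of the 46 genes and below it in 7. Over all 16600 genes tested these counts were 5854 and 6268, so a lack of overlap was common here. Scaled by library sizes alone, 16 members rose and 8 fell, and the median log2 fold change over all genes shifted by -0.26.

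**Figure D1:**
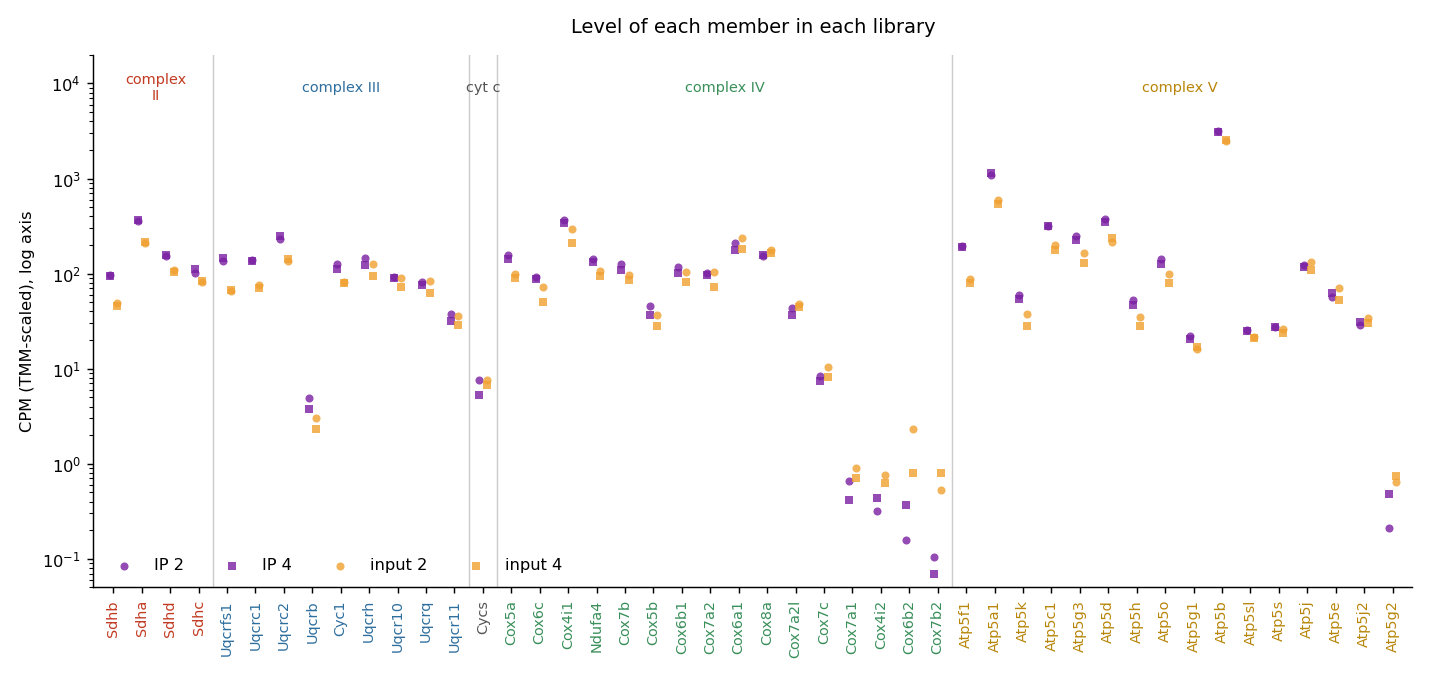
Normalised level (CPM, log axis) of each of the 46 genes in each library, with IP libraries in purple and input libraries in orange, circles for number 2 and squares for number 4, ordered by complex and by fold change. Atp5b stood highest, at 3115 CPM on average in IP and 2528 CPM in input, and 6 genes averaged below 5 CPM.

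**Figure D2:**
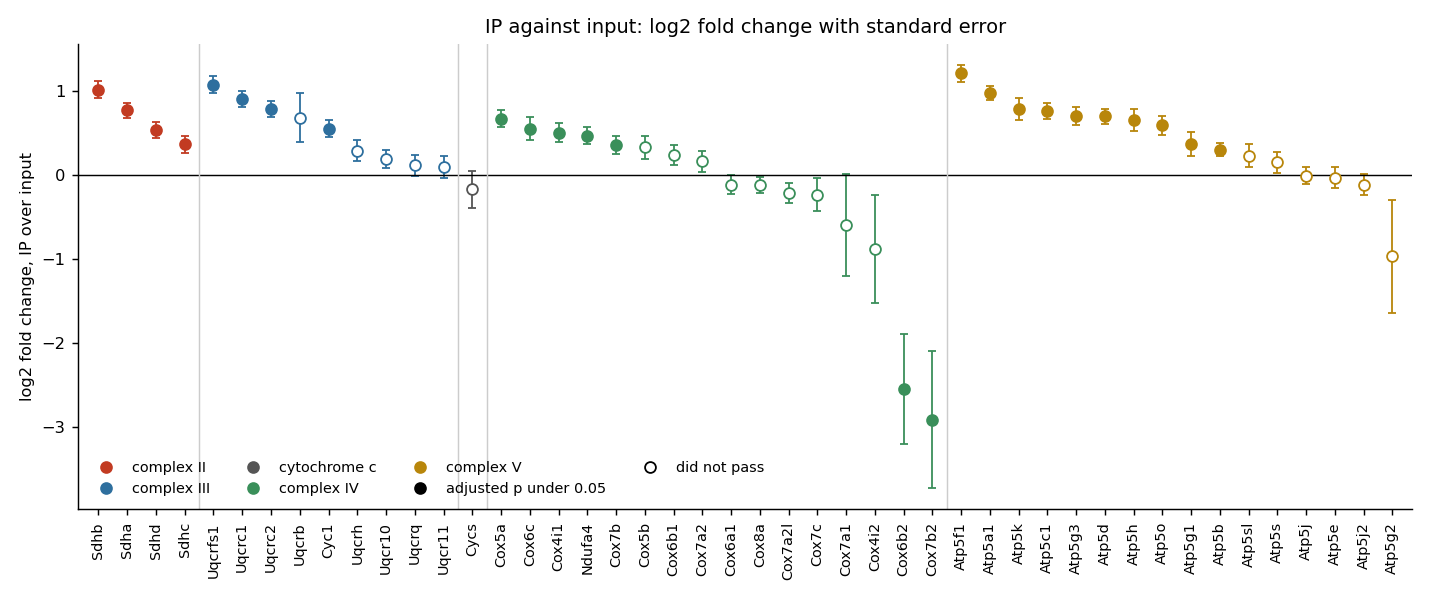
Log2 fold change of IP over input for each gene with its standard error, filled where the adjusted p is under 0.05. Cox7b2 is drawn as a description only, since its direction was fixed by the count limit. All 4 genes of complex II lie above 0, whereas complex IV spans 0.67 (Cox5a) to -0.23 (Cox7c) among genes at 5 CPM or more, with its 4 rare isoforms below that.

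The complexes differed in how many of their genes rose. All 4 genes of complex II rose (median log2 fold change 0.65), as did 10 of 14 of complex V (0.62), 4 of 9 of complex III (0.55) and 5 of 16 of complex IV (0.02), while Cycs did not pass. The share in complex IV, 31.25%, was not far from the 23.4% of all genes tested. At 5 CPM or more 34.3% of all genes rose. At that level the shares were 100% in complex II, 76.9% in complex V, 50% in complex III and 41.7% in complex IV. The complex IV median rests partly on 4 rare isoforms near the counting floor, of which Cox7b2 had its direction fixed by the count limit. That median was 0.28 over the 12 complex IV genes at 5 CPM or more. Over all 16 complex IV genes the median of 0.02 became 0.27 without input 2 and -0.11 without input 4. After correcting for transcript length and GC content the median of these 16 was 0.35. The summed level of complex II genes was 708 and 733 CPM in IP and 449 and 452 CPM in input, 1.60 times as high in IP. For complex III it was 997 and 966 CPM in IP and 699 and 619 CPM in input, 1.49 times as high. For complex V it was 5876 and 5753 CPM in IP and 4190 and 4054 CPM in input, 1.41 times as high. For complex IV it was 1568 and 1430 CPM in IP and 1388 and 1110 CPM in input, 1.2 times as high. In none of these 4 sums did the groups overlap, but for complex IV the lower IP library exceeded the higher input library only slightly. Differences between complexes were not tested. The sums of IP and input were not tested either, since 2 against 2 libraries cannot reach an exact two-sided p below 0.333.

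**Figure D3:**
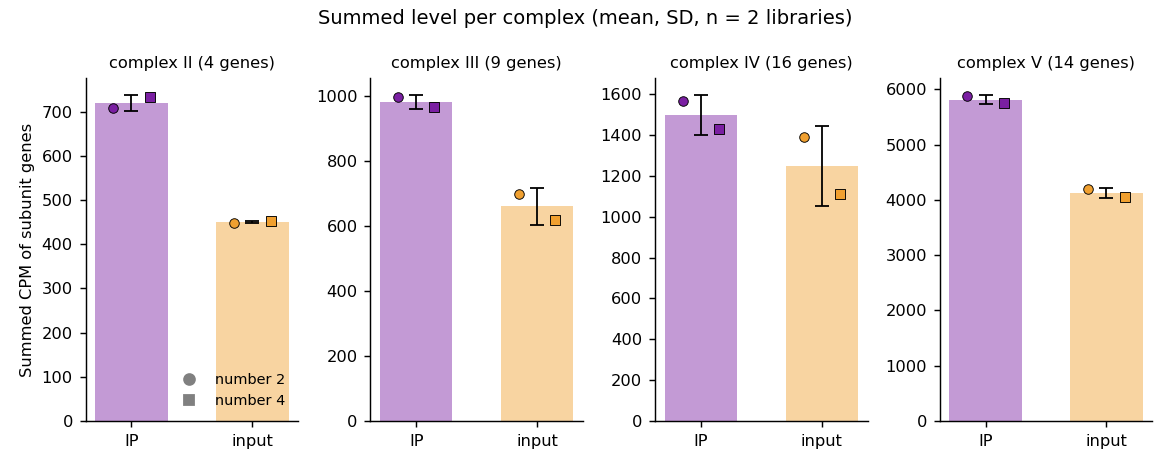
Summed CPM of the subunit genes of each complex in IP (purple) and input (orange), as bars for the mean with SD (n = 2 libraries) and points for single libraries. The IP bar exceeds the input bar in all 4 panels, from 1.60 times in complex II to 1.2 times in complex IV.

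Complex II. The gene for the iron-sulphur subunit, Sdhb, showed the largest difference of the 4. Its level was 97.2 and 95.1 CPM in IP, against 49.2 and 46.0 CPM in input. Both IP libraries stood well above both input libraries, with a log2 fold difference of 1.01 (SE 0.10, edgeR adjusted p = 2.35e-07). Sdhb (ENSMUSG00000009863.14) lies on the plus strand of chromosome 4 of GRCm38, from 140961203 to 140979193. Sdha, the flavoprotein that oxidises succinate, stood at 355 and 370 CPM in IP, against 208 and 217 CPM in input (log2 fold change 0.77, SE 0.09). The membrane anchors, which hold the haem and the ubiquinone site, rose less. Sdhd was at 154 and 156 CPM in IP and at 110 and 104 CPM in input, a log2 fold difference of 0.53 (SE 0.09). Sdhc was at 102 and 112 CPM in IP and at 81.3 and 84.5 CPM in input, a log2 fold difference of 0.37 (SE 0.10, edgeR adjusted p = 0.00545). For none of the 4 did the groups overlap, and Sdhc did not pass when scaled by library sizes alone (0.11, edgeR adjusted p = 0.387). Within a library, counts of Sdhb per 100 counts of Sdhc were 95.7 and 84.7 in IP and 60.6 and 54.5 in input, a pair chosen after the values were seen and not dependent on scaling.

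Complex III. Its large subunits rose and its small ones did not pass. Uqcrfs1 encodes the Rieske iron-sulphur protein and stood at 134 and 146 CPM in IP, against 65.9 and 67.2 CPM in input. The groups were far apart, with a log2 fold difference of 1.08 (SE 0.10, edgeR adjusted p = 7.11e-08). Uqcrfs1 (ENSMUSG00000038462.3) lies on the minus strand of chromosome 13 of GRCm38, from 30540308 to 30545362. The core protein genes Uqcrc1 and Uqcrc2 rose as well. Uqcrc1 was at 139 and 135 CPM in IP and at 75.7 and 70.7 CPM in input (log2 fold change 0.90, SE 0.10). Uqcrc2, the highest of the complex in CPM without correction for length, was at 233 and 247 CPM in IP and at 136 and 142 CPM in input (log2 fold change 0.78, SE 0.09). Cyc1, which encodes cytochrome c1, was at 126 and 112 CPM in IP and at 82.1 and 79.5 CPM in input (log2 fold change 0.55, SE 0.10). Of these 4 genes none had overlapping groups.

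The 5 genes for small subunits of complex III had log2 fold changes from 0.10 to 0.68, and none of them passed. Uqcr11 stood at 37.4 and 32.1 CPM in IP and at 36.1 and 28.9 CPM in input, so the groups overlapped (log2 fold change 0.10, SE 0.13, edgeR adjusted p = 0.584). Uqcrq stood at 82.5 and 76.7 CPM in IP and at 84.4 and 62.5 CPM in input, again with overlap (log2 fold change 0.12, SE 0.12). Uqcr10 had a log2 fold difference of 0.19 (SE 0.11) and Uqcrh, the hinge protein that links cytochrome c1 to cytochrome c, 0.29 (SE 0.12, edgeR adjusted p = 0.0632). Uqcrb, at 0.68 (SE 0.29), averaged 4.30 CPM in IP and 2.67 CPM in input. The input libraries disagreed more in these genes than in the large ones: input 2 exceeded input 4 by 1.25 to 1.35 times in the small ones and stood at 0.96 to 1.07 times in the others. Without input 2, 7 genes of the complex rose, and after correcting for transcript length and GC content all 9 did.

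Cytochrome c. Cycs, which carries electrons between complexes III and IV and also takes part in apoptosis, was at 7.52 and 5.34 CPM in IP and at 7.68 and 6.75 CPM in input. The groups overlapped (log2 fold change -0.17, SE 0.22, edgeR adjusted p = 0.562). Of its 50-base windows, 28.5% also occur in transcripts of other genes in the annotation, and reads without a unique place were not counted. The read length is not given in the labels and the window length is a choice made here, so how far its level is understated is unknown.

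Complex IV. All its nuclear genes encode supernumerary subunits, and here they ranged from higher to lower within 1 complex. Cox5a, a matrix-side subunit, stood at 158 and 143 CPM in IP, against 99.7 and 89.2 CPM in input. It had the largest log2 fold change of the complex, 0.67 (SE 0.10, edgeR adjusted p = 2.37e-05), without overlap. Cox4i1, the main form of the largest nuclear subunit and the highest gene of the complex in CPM, was at 369 and 343 CPM in IP and at 292 and 210 CPM in input (log2 fold change 0.51, SE 0.12). Cox6c was at 93.0 and 87.2 CPM in IP and at 73.0 and 49.8 CPM in input (0.55, SE 0.13), and without input 4 it no longer passed (0.31, edgeR adjusted p = 0.0614). Ndufa4, long counted with complex I and now placed in complex IV, rose by 0.47 (SE 0.10). Cox7b rose by 0.36 (SE 0.10) but did not pass without IP 2 (0.27, edgeR adjusted p = 0.0752) or without input 4 (0.28, edgeR adjusted p = 0.0841).

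The other abundant genes of complex IV did not pass in either direction. Cox6a1 stood at 209 and 177 CPM in IP and at 236 and 181 CPM in input, with overlap (log2 fold change -0.11, SE 0.12). Cox8a stood at 154 and 159 CPM in IP and at 176 and 164 CPM in input, without overlap but within a log2 fold difference of -0.12 (SE 0.09, edgeR adjusted p = 0.32). Per kilobase of transcript, Cox6a1 and Cox8a were nonetheless among the highest members, at 338 and 285 CPM per kb on average in IP and 366 and 309 in input. Cox7a2 was at 101 and 95.6 CPM in IP and at 104 and 72.1 CPM in input (0.16, SE 0.13), and Cox6b1 was at 118 and 101 CPM in IP and at 104 and 80.8 CPM in input (0.24, SE 0.12). Cox5b and Cox7c had log2 fold changes of 0.33 and -0.23. Cox7a2l, which helps to join complexes III and IV into supercomplexes, was at 43.2 and 36.5 CPM in IP and at 48.1 and 44.6 CPM in input (-0.22, SE 0.12). Input 2 exceeded input 4 in all 12 genes of complex IV at 5 CPM or more, by a median of 1.29 times, while the median over all genes at that level was 0.992. The count of genes that rose went with this difference, from 5 with both input libraries to 8 without input 2 and 3 without input 4. It was 1 with library sizes alone, where 6 genes fell, and 8 after correcting for transcript length and GC content.

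The rare isoforms of complex IV stood below both input libraries in both IP libraries, at levels close to the counting floor. Cox6b2, known from testis, held 6 and 16 counts in the IP libraries, against 106 and 35 in the input libraries (log2 fold change -2.54, SE 0.66, edgeR adjusted p = 0.00375). It met the count limit only with its input counts, so this call is not independent of that limit. The input libraries differed 2.88-fold in level, and without input 2 the gene did not pass (-1.59, edgeR adjusted p = 0.28). Cox7b2, also a testis form, held 4 and 3 counts in the IP libraries, against 24 and 35 in the input libraries, a fitted log2 fold change of -2.91. Cox4i2, an isoform of lung and of hypoxic cells, held 12 and 19 counts in the IP libraries, against 35 and 27 in the input libraries (-0.87, SE 0.64). Cox7a1, the heart and muscle form, held 25 and 18 counts in the IP libraries, against 41 and 31 in the input libraries (-0.59, SE 0.61). Neither of the last pair passed.

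Set within each library against the abundant paralogue, Cox4i2, Cox6b2 and Cox7a1 were minor in every library. Counts of Cox4i2 per 100 counts of Cox4i1 were 0.0855 and 0.128 in IP and 0.264 and 0.297 in input. Counts of Cox6b2 per 100 of Cox6b1 were 0.134 and 0.366 in IP and 2.24 and 1.001 in input, and counts of Cox7a1 per 100 of Cox7a2 were 0.649 and 0.436 in IP and 0.868 and 0.994 in input. Cox7a2l was less rare, with counts per 100 of Cox7a2 of 42.6 and 38.2 in IP and 46.3 and 61.9 in input. In these 4 pairs both IP libraries lay below both input libraries. By level, 6268 of all 16600 genes tested did so too, and the share for ratios of gene pairs was not counted. Counts of Cox8b per 100 of Cox8a overlapped, at 0 and 0.0292 in IP and 0.0125 and 0.0141 in input, and rest on at most 2 counts a library. Markers of endothelium summed to 3.66 and 4.46 CPM in IP and 7.04 and 4.73 CPM in input, and those of muscle and heart to 32.2 and 28.5 CPM in IP and 27.7 and 23.5 CPM in input. Most of the muscle and heart sum was Tnnt2, at 22.4 and 19.7 CPM in IP and 11.9 and 9.52 CPM in input. The other 3 markers of that list that were tested stood below input in both IP libraries, and Myh7 fell (3.34 and 4.14 CPM in IP and 7.35 and 7.32 CPM in input). Their part in the isoform values was not tested.

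**Figure D4:**
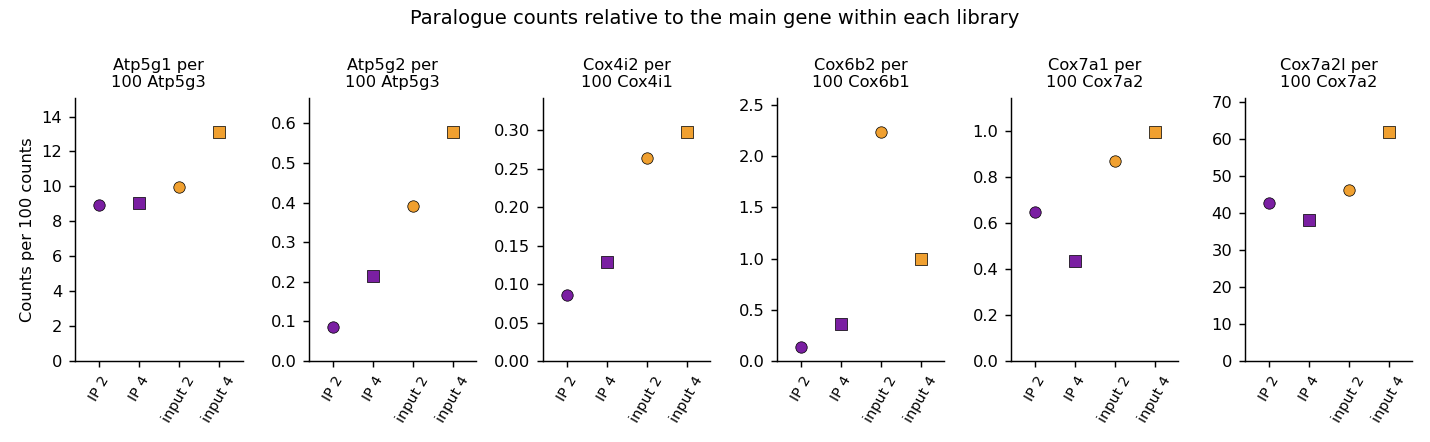
Counts of the less abundant gene of each pair per 100 counts of its more abundant paralogue, in each of the 4 libraries (IP purple, input orange). In the pairs drawn both IP points lie below both input points, as for Atp5g1 per 100 Atp5g3 at 8.93 and 9.06 in IP against 9.95 and 13.1 in input.

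Complex V. Of the 5 genes for the head and central stalk of the ATP synthase 4 rose, as did 3 of 4 for the peripheral stalk, 2 of 3 for ring c and 1 of 2 for other small membrane subunits. Atp5b, the catalytic beta subunit, was the most abundant member by far, at 3155 and 3075 CPM in IP, against 2508 and 2548 CPM in input. Its difference was small and without overlap (log2 fold change 0.30, SE 0.08, edgeR adjusted p = 0.00417), and it did not pass when scaled by library sizes alone (0.04, edgeR adjusted p = 0.684). Atp5a1, the alpha subunit that alternates with beta in the head, was at 1101 and 1134 CPM in IP and at 593 and 543 CPM in input (0.97, SE 0.09, edgeR adjusted p = 4.81e-08). Counts of Atp5a1 per 100 counts of Atp5b were therefore 34.9 and 36.9 in IP and 23.7 and 21.3 in input, a pair chosen after the values were seen. Atp5b made up 53.7% and 53.4% of the summed CPM of complex V in IP and 59.8% and 62.9% in input. Without Atp5b the remaining 13 genes summed to 2721 and 2678 CPM in IP and 1682 and 1505 CPM in input, 1.69 times as high in IP.

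Of the other subunits of the head and central stalk, Atp5c1 (gamma) rose by 0.76 (SE 0.09) and Atp5d (delta) by 0.70 (SE 0.09), while Atp5e (epsilon) was at 57.4 and 62.7 CPM in IP and 70.3 and 52.4 CPM in input, with overlap (-0.03, SE 0.13). In the peripheral stalk, which holds the head still against the rotor, Atp5f1 had the highest fold change of the 46 genes. It stood at 197 and 188 CPM in IP, against 88.1 and 78.9 CPM in input (log2 fold change 1.21, SE 0.10, edgeR adjusted p = 1.56e-08). Atp5f1 (ENSMUSG00000000563.17) lies on the minus strand of chromosome 3 of GRCm38, from 105942698 to 105960099, and its exons overlap those of Wdr77 and Gm42890 on the opposite strand. Atp5h rose by 0.65 (SE 0.13) and Atp5o, the protein that ties the stalk to the head, by 0.59 (SE 0.11). Atp5j, the fourth stalk subunit listed, was at 123 and 117 CPM in IP and at 133 and 108 CPM in input, with overlap (-0.01, SE 0.11). In the membrane, Atp5k rose by 0.78 (SE 0.13), whereas Atp5j2 was at 28.6 and 30.7 CPM in IP and 34.2 and 30.1 CPM in input (-0.12, SE 0.13). Atp5s and Atp5sl had log2 fold changes of 0.15 (SE 0.13) and 0.23 (SE 0.13) and did not pass.

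Ring subunit c is made from 3 genes, Atp5g1, Atp5g2 and Atp5g3, on chromosomes 11, 15 and 2 of GRCm38. Conceptual translation of their GENCODE coding sequences gave proteins of 136, 146 and 141 residues whose last 78 residues were identical, with differences only before them, where the mitochondrial import signal lies. The coding stretch around the start of that shared end is shown because the genes make the same ring protein from different bases, which decides how reads are told apart. The first 30 bases are in lower case and the first 60 bases of the shared end are in capitals, in the direction of transcription.
Atp5g1: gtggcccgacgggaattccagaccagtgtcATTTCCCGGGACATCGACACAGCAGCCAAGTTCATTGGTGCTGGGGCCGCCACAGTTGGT
Atp5g2: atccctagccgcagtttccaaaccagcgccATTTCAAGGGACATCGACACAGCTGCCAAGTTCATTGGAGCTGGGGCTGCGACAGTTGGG
Atp5g3: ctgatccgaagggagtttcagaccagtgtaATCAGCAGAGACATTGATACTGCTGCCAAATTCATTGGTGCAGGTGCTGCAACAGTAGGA

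Over the 234 bases of the shared end, Atp5g1 and Atp5g2 had 84.6% of bases in common, Atp5g1 and Atp5g3 78.6%, and Atp5g2 and Atp5g3 77.4%. The longest identical run was 20 bases, so these genes shared no 50-base window with each other in this stretch. Atp5g3 was the main one counted, at 246 and 227 CPM in IP, against 163 and 128 CPM in input (log2 fold change 0.70, SE 0.11, edgeR adjusted p = 3.55e-05). Atp5g1 was at 21.9 and 20.6 CPM in IP and at 16.2 and 16.8 CPM in input (0.37, SE 0.14, edgeR adjusted p = 0.0405), and it did not pass without IP 2, without input 2 or without input 4. Atp5g2 held 8 and 21 counts in the IP libraries, against 29 and 32 in the input libraries (-0.97, SE 0.67). Of the 50-base windows of the transcripts, 66.0% for Atp5g1 and 100% for Atp5g2 also occur in other annotated genes, mostly processed pseudogenes, and 0% for Atp5g3. The order of these levels is therefore uncertain, since only reads with a unique place were counted.

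Other members shared windows with annotated transcripts too, and sequence outside annotated transcripts was not searched. More than 10% of windows were shared for 13 of the 46 genes, among them Cox7c (53.0%), Atp5h (50.5%), Uqcrb (43.2%) and Atp5f1 (23.2%), and none for 24 genes. Of the 33 genes with at most 10% shared, 18 rose and 2 fell (median 0.36). In complex V, 6 of 9 such genes rose. Genes on the opposite strand overlap exons of 10 members (Uqcrc2, Uqcrb, Cox5a, Cox6c, Cox4i1, Atp5f1, Atp5a1, Atp5d, Atp5o and Atp5j). Without knowledge of the strand setting, reads of such partners cannot be told apart.

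Pooled over the complexes, members with longer coding sequences had higher fold changes. The 40 members at 5 CPM or more had a Spearman rho of 0.64 between coding length and log2 fold change, given as a description over genes that share libraries. It was 0.02 over 10315 coding genes at that level and 0.12 over the 6998 of them with fewer than 2000 coding bases. Of the 8 members from 600 to 1000 coding bases 6 rose, against 669 of 1821 coding genes, and of the 5 with 1000 or more 5 rose, against 2715 of 7273. Of the 14 with fewer than 300, 4 rose (Atp5k, Cox6c, Ndufa4 and Cox7b) and 0 fell, with a median of 0.18. Among all 195 coding genes under 300 bases at this level, 19 were higher and 70 lower (median -0.19). Of the 13 members from 300 to 600 bases 8 rose (median 0.37), against 229 risen and 233 fallen of 1026 coding genes (median 0.01). Median coding length was 677 bases in complex II, 461 in complex V, 333 in complex III and 254 in complex IV, against 1410 over all coding genes tested. Length and complex thus ran together, and which of them the difference follows was not tested.

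**Figure D5:**
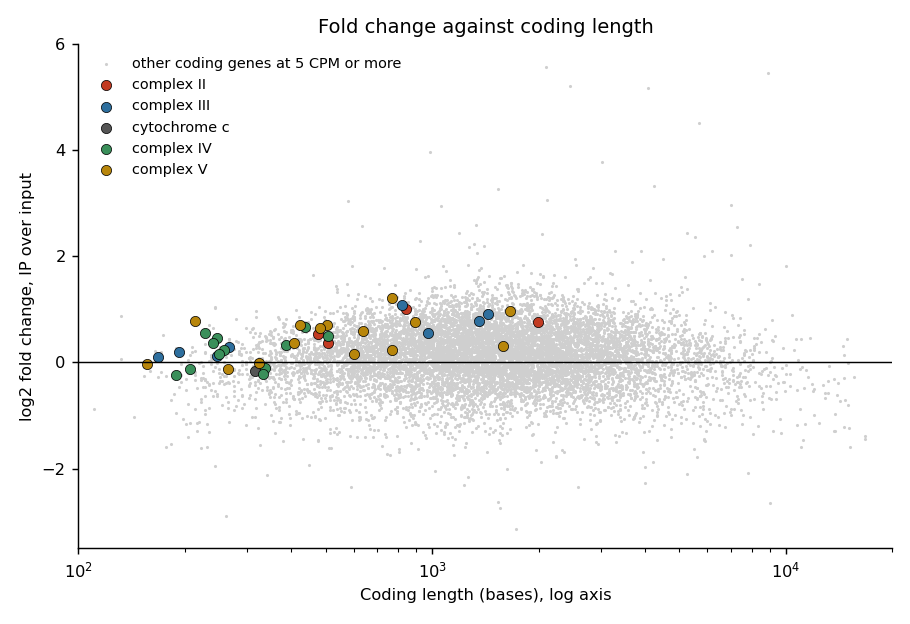
Log2 fold change of IP over input against coding length (log axis) for the 40 members at 5 CPM or more, coloured by complex, over the other coding genes at that level in grey. Members with fewer than 300 coding bases span -0.23 to 0.78 with a median of 0.18, those with 1000 or more have a median of 0.78, and most complex IV genes sit at the short end.

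Promoters of the members were searched for letters bound by NRF1, a transcription factor known to control many nuclear respiratory genes, and by the ETS family, to which the respiratory regulator Gabpa belongs. In RefSeq windows from 250 bases before to 50 bases after the gene start (GRCm38.p6), 34 of the 46 genes had an entry. The core GCGCATGC was present on either strand in 7 of them (20.6%), against 5.67% of 10865 coding genes tested, and CCGGAAGT in 4 (11.8%), against 8.06%. Of the 10 members with either motif 4 rose, and of the 24 with neither 12 rose. Among coding genes tested, 478 of 1420 with either motif and 2476 of 9445 with neither rose. The matching genes were Sdhb, Uqcrc1, Uqcr11, Cycs, Cox6a1, Atp5g2 and Atp5k for the NRF1 core and Uqcr11, Uqcrh, Cox8a and Atp5h for the ETS motif. A match is a description of the letters and no binding was measured.

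Promoters of 3 genes are shown, because they carry the NRF1 core in a gene that rose (Uqcrc1), in 1 with both motifs that did not pass (Uqcr11) and in cytochrome c. They lie at chr9:108936398-108936697 (plus strand), chr10:80406772-80407071 (minus strand) and chr6:50566520-50566819 (minus strand) of GRCm38.p6. Capitals mark the motif letters on either strand. In Uqcrc1 the core matches both strands in overlapping positions.
Uqcrc1: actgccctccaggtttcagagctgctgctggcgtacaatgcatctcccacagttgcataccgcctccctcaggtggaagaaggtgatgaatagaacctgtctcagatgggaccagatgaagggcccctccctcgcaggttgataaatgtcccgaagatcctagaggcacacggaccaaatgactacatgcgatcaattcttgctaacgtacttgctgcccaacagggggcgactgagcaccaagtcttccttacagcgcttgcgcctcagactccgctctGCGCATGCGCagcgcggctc
Uqcr11: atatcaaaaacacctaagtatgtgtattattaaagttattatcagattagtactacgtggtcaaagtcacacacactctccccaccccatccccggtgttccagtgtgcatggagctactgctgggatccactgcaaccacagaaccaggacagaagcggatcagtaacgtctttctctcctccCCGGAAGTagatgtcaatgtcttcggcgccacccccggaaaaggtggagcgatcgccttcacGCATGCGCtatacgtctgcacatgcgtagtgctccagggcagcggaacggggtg
Cycs: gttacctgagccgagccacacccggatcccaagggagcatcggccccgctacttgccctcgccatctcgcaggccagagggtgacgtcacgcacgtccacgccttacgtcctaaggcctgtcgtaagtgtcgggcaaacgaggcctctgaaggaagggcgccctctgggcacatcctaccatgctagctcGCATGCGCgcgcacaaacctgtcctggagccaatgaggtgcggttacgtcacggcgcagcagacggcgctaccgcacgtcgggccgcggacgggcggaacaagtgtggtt

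Other genes of the pathway were read from the same fit, in which 23.4% of all genes tested rose and 22.4% fell. All 7 genes for carriers and porins rose (median 0.86), among them the ADP/ATP carriers Slc25a5 (1.19, SE 0.10) and Slc25a4 (0.97, SE 0.09). Slc25a4 stood at 1428 and 1325 CPM in IP, against 698 and 710 CPM in input. Of 12 coenzyme Q synthesis genes 8 rose and 1 fell (median 0.61). Coq7, a hydroxylase of the pathway, rose by 0.99 (SE 0.15) and Adck3 by 0.91 (SE 0.14), while the prenyltransferase gene Coq2 had a log2 fold difference of -0.50 (SE 0.19). Of 9 cristae genes 5 rose and 1 fell (median 0.72), with Immt, the central MICOS protein, at 0.90 (SE 0.10) and Chchd6 at 0.80 (SE 0.14). The gene that fell was Minos1, a small MICOS subunit, at -0.32 (SE 0.12).

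Of the 6 genes for assembly and associated proteins of complex V, 4 rose (median 0.47), including the ATPase inhibitor Atpif1 at 0.97 (SE 0.11) and the chaperone Atpaf1 at 0.53 (SE 0.15). Of 4 complex II assembly genes, Sdhaf4 (0.65, SE 0.17) and Sdhaf2 (0.32, SE 0.12) rose and Sdhaf1 fell (-1.11, SE 0.26). Of 6 complex III assembly genes 2 rose (33.3%, against 34.3% of all genes at 5 CPM or more). They were Uqcc1 (0.39, SE 0.13) and Ttc19 (0.38, SE 0.10). Of 24 complex IV assembly genes tested 5 rose (20.8%) and 3 fell (median 0.12). For comparison, 23.4% of all genes tested rose, and 34.3% of those at 5 CPM or more. Lrpprc, which stabilises mitochondrial mRNAs, rose by 1.01 (SE 0.11) and Cox15, a haem A synthesis enzyme, by 0.74 (SE 0.11), whereas Cox11, a copper chaperone, fell by 0.54 (SE 0.14). Coa5 stood at 82.9 and 77.2 CPM in IP, against 241 and 246 CPM in input (-1.61, SE 0.10, edgeR adjusted p = 2.61e-10). Of 13 nuclear regulators 4 rose (30.8%, against 34.3% of all genes at 5 CPM or more) and 1 fell (median 0.07). Polrmt, the mitochondrial RNA polymerase, was higher by 0.78 (SE 0.18) and Tfb1m, a mitochondrial rRNA methyltransferase, by 0.80 (SE 0.21). The gene that fell was Ppargc1a, a coactivator of mitochondrial biogenesis, at 153 and 160 CPM in IP and 174 and 220 CPM in input (-0.34, SE 0.11). Opposite-strand genes overlap exons of Adck3, Immt, Atpif1, Sdhaf1, Sdhaf2, Sdhaf4, Ttc19, Cox15, Cox11 and Tfb1m, so their values are uncertain to that extent.

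Other nuclear genes for mitochondrial proteins can be set beside the members. Of 36 complex I subunit genes 27 were higher (75.0%) and 0 lower (median 0.56). Among 76 tested for mitochondrial ribosomal proteins 37 were higher (48.7%) and 2 lower (median 0.36). All 36 of the former and 71 of the latter stood at 5 CPM or more. At that level 34.3% of all genes rose and 20.5% fell, and 57.5% of the members rose and 0 fell. Differences between these sets were not tested.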

How the data were processed

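Per the labels' protocols, RNA was taken from homogenised cortex, and tagged polysomes were captured with anti-EGFP antibodies on magnetic beads. The authors deposited raw read counts for each gene symbol, made with STAR 2.0.0e, HTSeq and build mm10 per the submitters' processing notes. No source used here names the annotation, strand setting or library kit. Reads outside features made up 7.31% and 7.54% of records in IP and 14.9% and 13.5% in input. Ambiguous reads made up 1.54% and 1.54% in IP and 5.07% and 5.09% in input. Reads without a unique alignment made up 37.0% and 38.0% in IP and 32.1% and 30.7% in input. All these reads and the line named unknown (0 to 2 counts) stayed out of library sizes. The groups thus differed in each of these shares, and the effect on the fold changes was not tested.

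From these counts, edgeR 4.0.16 (R 4.3.3) tested 16600 of 21923 genes with counts, using filterByExpr (minimum count 10, minimum total 15), TMM factors (0.920, 0.909, 1.10 and 1.09 for IP 2, IP 4, input 2 and input 4) and glmQLFTest for IP over input, with group as the only term. The biological coefficient of variation was 12.5%, with 2 residual and 16.8 prior degrees of freedom. Standard errors were derived from the quasi-likelihood F statistic. Replicates differed far beyond sampling noise (chi-square per degree of freedom 21.2 within IP and 14.5 within input). Floors cover counting error only.

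Transcript, coding length, GC content and 50-base windows came from GENCODE vM21 (GRCm38, the assembly of mm10), with the principal and best supported transcript of each gene. All 46 members matched. Members, lists and alternatives were chosen with earlier results of these data known. Full values are given for the 2 highest and 2 lowest fold changes and the most abundant gene of each complex and for fixed paralogue pairs, and up to 2 called genes at 5 CPM or more in each direction for other lists. Alternatives were DESeq2 1.42.0, DESeq2 size factors, library sizes alone, filters, a replicate block, leaving out each library, thinning, a GC and length correction (mgcv 1.9.3), TMM without the members, and leaving out Rn45s with 5 abundant genes. Runs without members that share over 10% of windows or average below 5 CPM were added after seeing the data. The method was tested on simulated data. Figures were drawn with matplotlib 3.10.9.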

Additional observations from a re-analysis of the deposited data

How the results depend on the processing

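The 23 higher genes numbered 16 to 33 across the alternatives run. The count of 2 lower genes was 8 with library sizes alone, 0 with a stricter filter (where neither Cox6b2 nor Cox7b2 was tested), 0 without members below 5 CPM, and 0 to 2 when single libraries were left out. Over all genes, library sizes alone gave 2153 higher and 5902 lower, against 3886 and 3719. Library sizes alone also moved the median log2 fold changes of complexes II, III, IV and V to 0.39, 0.29, -0.24 and 0.36. Correcting for transcript length and GC content, over the 15101 genes with both, gave medians of 0.70, 0.70, 0.35 and 0.71 for complexes II, III, IV and V, against 0.65, 0.55, 0.02 and 0.62, and turned Atp5e to 0.35 (edgeR adjusted p = 0.00866). The cause was not tested. The stricter filter gave 0.59 for complex II, and without members below 5 CPM complex IV stood at 0.28. Leaving out single libraries gave medians of 0.64 to 0.69 for complex II, 0.48 to 0.65 for complex III, -0.11 to 0.27 for complex IV and 0.48 to 0.71 for complex V.

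The labels do not say that numbers 2 and 4 mark animals, and deviations of IP 2 and input 2 correlated at 0.05 over genes. With the replicate block 27 members rose and 2 fell, Uqcrb, Uqcrh, Cox5b and Cox6b1 being added, and the medians of complexes II to V were 0.65, 0.55, 0.04 and 0.63. DESeq2, its size factors, thinning to 39750468 counts, leaving out Rn45s with 5 abundant genes, and TMM without the members changed no member's call. Depth limits the 6 members below 5 CPM.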

Other observations

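Coding length and fold change were related in other nuclear genes for mitochondrial proteins too. Over 36 complex I subunit genes Spearman's rho was 0.51, and over 71 mitochondrial ribosomal protein genes at 5 CPM or more it was 0.47, against 0.64 for the members described above. With GC content rho was -0.07, 0.00 and -0.12 in that order. With mean CPM it was 0.37, -0.05 and 0.45, against 0.12 over all coding genes at that level. These are descriptions over genes that share the same 4 libraries.

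The input libraries differed in level among the respiratory genes, by median most in complex IV. Of the 40 members at 5 CPM or more, input 2 stood above input 4 in 33, with a median ratio of 1.13 and a range of 0.910 to 1.47, and IP 2 stood above IP 4 in 30, with a median ratio of 1.06. The median input 2 to input 4 ratio was 1.01 in complex II, 1.16 in complex III, 1.29 in complex IV and 1.13 in complex V. Over all 10681 genes at that level the ratios were 0.992 for input and 1.001 for IP. The cause was not tested.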
